A study of Mus musculus with 8 samples.

Results

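Mptx1 and Mptx2 are the mouse mucosal pentraxin genes, and they were picked by symbol from the 32285 genes of the deposited count tables, where each has 1 row (ENSMUSG00000026531 and ENSMUSG00000079180). They were chosen because earlier results of these data showed that the genes change places between small and large intestine, so the tissue differences below are descriptions and were not tested. The study profiled RNA in 8 mouse libraries: 4 droplet single-cell libraries and 4 Visium sections, in which RNA of the tissue lying over each spot of a slide is captured together. Per the labels, all samples were of C57BL/6 mice, and Lgr5-eGFP-ires-CreERT2 mice on the same background, which carry a GFP and Cre reporter in the stem cell gene Lgr5, were also used for sorting. Small intestinal organoids, miniature epithelial cultures, were at passage 1 and were grown either alone (control) or in a coculture whose partner the labels do not name. For each culture, 16 wells were pooled and 100000 epithelial cells were sorted, and the 2 sorted samples were pooled again for submission. Small and large intestinal tissue each gave 1 library of 50000 sorted live cells enriched with 50000 LGR5+ stem cells and with 20000 to 25000 lymphatic endothelial cells (CD31+ PDPN+ LYVE1+), so the share of a cell class describes the sort. The sections were 10 µm thick, with 2 technical duplicates per tissue.

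Pentraxins are secreted proteins that assemble into rings and bind their ligands with calcium. The best known, C-reactive protein (gene Crp) and serum amyloid P component (gene Apcs), come from the liver, bind microbes and cell debris, and can engage complement C1q and Fc receptors. The mucosal pentraxins are made in the gut epithelium instead. Paneth cells, at the base of small intestinal crypts, secrete antimicrobial peptides such as the alpha-defensins (Defa genes) and lysozyme (Lyz1), and goblet cells secrete the mucin Muc2. The mouse colon normally holds goblet cells but no Paneth cells.

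Both genes lie on chromosome 1 in RefSeq's annotation of GRCm38.p6, Mptx2 at chr1:173274461-173277756 on the minus strand and Mptx1 at chr1:174330518-174332877 on the plus strand, with 1053 kb between the 2 start sites. The 250 bases before each annotated start are shown 5′ to 3′ because the genes have similar promoters and opposite tissue levels. The stretches are chr1:174330268-174330517 (plus strand) for Mptx1 and chr1:173277757-173278006 (minus strand) for Mptx2, and capitals mark the TATA-like motif TATAAG.
Mptx1: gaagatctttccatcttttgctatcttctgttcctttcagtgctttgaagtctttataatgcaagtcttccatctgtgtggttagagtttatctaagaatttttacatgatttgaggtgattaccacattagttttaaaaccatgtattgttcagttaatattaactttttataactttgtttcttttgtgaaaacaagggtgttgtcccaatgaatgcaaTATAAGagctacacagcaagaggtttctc
Mptx2: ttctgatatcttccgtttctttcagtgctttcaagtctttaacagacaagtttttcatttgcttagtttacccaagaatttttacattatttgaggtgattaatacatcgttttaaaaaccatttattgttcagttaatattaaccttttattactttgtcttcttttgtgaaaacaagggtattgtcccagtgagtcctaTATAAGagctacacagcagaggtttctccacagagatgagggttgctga
In a global alignment of the RefSeq windows of 300 bases, which also hold the first 50 transcribed bases, 247 of 278 aligned base pairs of Mptx1 and Mptx2 were identical (88.8%). The other 5 pairs among Mptx1, Mptx2, Crp and Apcs were 53.3% to 63.0% identical by the same alignment. TATAAG, searched on both strands, began at position -29 from the annotated Mptx1 start and at position -49 from that of Mptx2, and 6.65% of 32851 annotated promoter windows of 250 bases hold it. Of 3 motifs named for factors of the gut epithelium, the CDX motif TTTATNG was in the Mptx2 window (9.81% of all windows), and the GATA motif AGATAA and the TCF motif CTTTGNT were in the Mptx1 window (9.99% and 16.0% of all windows), each once and in 1 of the 2 windows. A match describes these letters only. How reads that match both genes were assigned is not given in the sources used here, so the smaller count of the pair in any library is uncertain.

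Levels are given in CPM, the UMIs (unique molecular identifiers, counted molecules) of a gene scaled by all UMIs of the same library, class or section. Intervals in parentheses are exact 95% limits and cover counting error only. After filtering, the libraries held 43279721 to 123827909 UMIs in 538 to 5882 cells, and the sections 24355871 to 43832840 UMIs in 2094 to 2571 spots. With 1 library per condition or tissue there is no replicate check, and a tissue difference cannot be told apart from a library difference. The tissue libraries shared 25 barcodes, and the organoid libraries 0.

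Mptx2 was the higher of the pair in every small intestinal tissue library and Mptx1 in every large intestinal one. In sorted small intestine, Mptx2 was at 1445 CPM (1434 to 1455) and Mptx1 at 14.7 CPM (13.6 to 15.7). In sorted large intestine, Mptx1 was at 5864 CPM (5850 to 5877) and Mptx2 at 0.202 CPM (0.131 to 0.298), which is 25 UMIs in 25 cells. The sections gave the same order: Mptx2 was at 952 and 416 CPM in small intestine sections 1 and 2, and Mptx1 at 86.4 and 56.2 CPM. Large intestine sections 1 and 2 held Mptx1 at 5537 and 5134 CPM, and Mptx2 with 1 UMI each. The values of the 2 tissues do not overlap for either gene, which was so for 15.8% (higher in large intestine) and 9.27% (lower) of 15871 genes with at least 100 UMIs. As a share of the summed UMIs of both genes, Mptx1 made up 1.00% (0.935 to 1.08) in small intestinal cells and 8.32% and 11.9% in the small intestine sections. In large intestine that share was 99.997% in cells and above it in both sections.

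**Figure D1:**
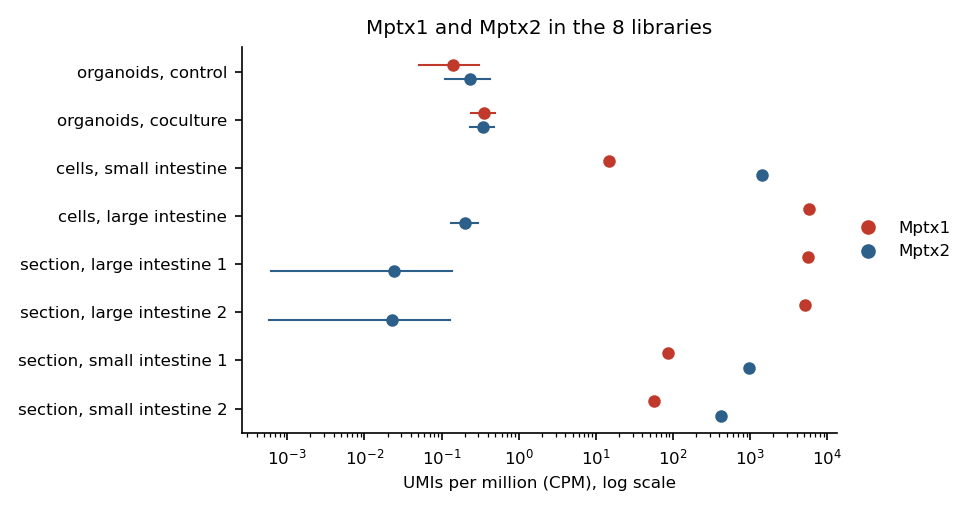
Level of Mptx1 (red) and Mptx2 (blue) in the 8 libraries, in CPM on a log axis; lines are exact 95% counting intervals, shorter than the symbol where none is seen. Mptx1 lies above 5000 CPM in the 3 large intestinal libraries and Mptx2 above 400 CPM in the 3 small intestinal tissue libraries, while both are below 1 CPM in organoids.

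Among epithelial cells, Mptx1 was 8.60 log2 units higher in large than in small intestine (8.50 to 8.70), and Mptx2 was 12.90 log2 units higher in small than in large intestine (12.32 to 13.54). For scale, 13.9% of 12971 genes with at least 100 UMIs were at least 2-fold higher in large intestinal epithelial cells and 7.63% at least 2-fold lower, with a median log2 ratio over all of them of 0.29. By that ratio Mptx1 had rank 16 of 12971 from the large intestinal end, and Mptx2 rank 16 from the small intestinal end. In the sections, the ratio of mean levels was 6.23 log2 units for Mptx1, toward large intestine. For Mptx2 it was 13.24 log2 units toward small intestine with each count of 1 set to 3 (12.53 without small intestine section 1), and the counting interval over the summed sections (35714 against 2 UMIs) ran from 12.92 to 17.81. There, 12.9% of 14253 genes were at least 2-fold higher in large intestine and 14.5% at least 2-fold lower. In a spot, fewer cells of a type and less RNA per cell cannot be told apart.

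In small intestinal tissue, Mptx2 was found mainly in Paneth-like cells. Cells were grouped into classes by clusters made without the pentraxin genes, and a class carries the ending "-like" because it was named from marker genes. The 203 Paneth-like cells held 96.3% of the Mptx2 UMIs of the library, at 7963 CPM (7905 to 8021), beside a summed level of 613254 CPM for 9 Paneth markers (Lyz1, 5 alpha-defensins, Ang4, Itln1 and Mmp7). Of 12094 genes with at least 100 UMIs, 0.959% were at least 2-fold higher and 92.3% at least 2-fold lower in Paneth-like than in other cells. Mptx2 was 6.93 log2 units higher in them. Mptx2 had a UMI in 197 of the 203 cells. Its share of a cell's UMIs had a median of 0.775%, with 0.0599% at the 10th percentile, 2.42% at the 90th and 5.63% at most. The cell with the most Mptx2 held 6.85% of the class total.

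Mptx2 was far lower in the other small intestinal classes, where the Paneth markers were lower too. Named classes of at least 20 cells other than Paneth-like, goblet-like and B-like ranged from 26.6 CPM in enterocyte-like cells to 145 CPM in blood endothelial-like cells. Per 1000 UMIs of the Paneth list, Mptx2 stood at 13.0 in Paneth-like cells, 11.9 in enterocyte-like, 12.2 in cycling-like, 10.6 in stem-like, 12.1 in tuft-like and 11.0 in lymphatic endothelial-like cells. The other classes of at least 20 cells, apart from goblet-like and B-like, ran from 7.81 in T, NK or innate lymphoid-like to 16.8 in blood endothelial-like cells. These ratios differ far less than the levels of Mptx2 do, and the part of free RNA in them was not tested. The B-like cells stood at 290 CPM (258 to 325) and 28.6 per 1000, and 2 of the 301 cells held 50% of their Mptx2 UMIs. The level moved with the cells of that class. It was 62.3 CPM under the loose cell filter, 51.9 CPM at resolution 2 and 58.6 CPM with a per-cell marker gate, but 253 CPM under the strict filter, 286 CPM with doublets kept and 290 CPM at resolution 0.5. After thinning each cell to 2000 UMIs, Mptx2 was seen in 91.1% of Paneth-like cells (86.3 to 94.7) and 11.0% of B-like cells (7.54 to 15.3). Before thinning these shares were 97.0% and 17.6%, at median depths of 17981 and 2802 UMIs.

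Goblet-like cells of the small intestine had Paneth list transcripts with little Mptx2. Their 224 cells held Mptx2 at 154 CPM (143 to 165), of which 1 cell held 55.1%, and without that cell the level was 69.5 CPM. The Paneth list was at 35845 CPM in them, so Mptx2 stood at 4.29 per 1000 UMIs of the list, the lowest of the named classes of at least 20 cells. The ratio of Paneth-like to goblet-like cells was 5.69 log2 units, and 6.76 without the top cell of each class; the alternatives ran from 5.44 to 7.12.

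Mptx1 in the same small intestinal library was found mainly in goblet-like cells, at a low level. The goblet-like cells held 688 of its 765 UMIs (89.9%), at 131 CPM (122 to 141), beside 176092 CPM for 7 goblet markers (Muc2, Fcgbp, Clca1, Tff3, Zg16, Spink4 and Spdef). A UMI was found in 55 of 224 goblet-like cells, 5 cells held 50% of the class total, and the highest held 129 UMIs. Without that cell the level was 107 CPM. Both goblet-like clusters had it, with 136 CPM (125 to 147) in the larger and 115 CPM (95.9 to 137) in the Zg16-rich smaller. These 2 levels do not differ beyond counting error. Paneth-like cells stood at 6.80 CPM (5.22 to 8.72), 62 UMIs of which 36 were in 1 cell. The ratio of goblet-like to Paneth-like cells was 4.27 log2 units, and 2.84 without the Paneth list and Defa genes in the total. All other named classes of at least 20 cells were at 1.32 CPM or less. After thinning to 2000 UMIs, Mptx1 was seen in 9.35% of goblet-like cells (5.80 to 14.1) and in 1 of 273 B-like cells (0.366%); unthinned, in 24.6% and 0.332%. Of the 55 goblet-like cells with an Mptx1 UMI, 31 also had an Mptx2 UMI, and 88 goblet-like cells had Mptx2 UMIs without Mptx1.

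**Figure D2:**
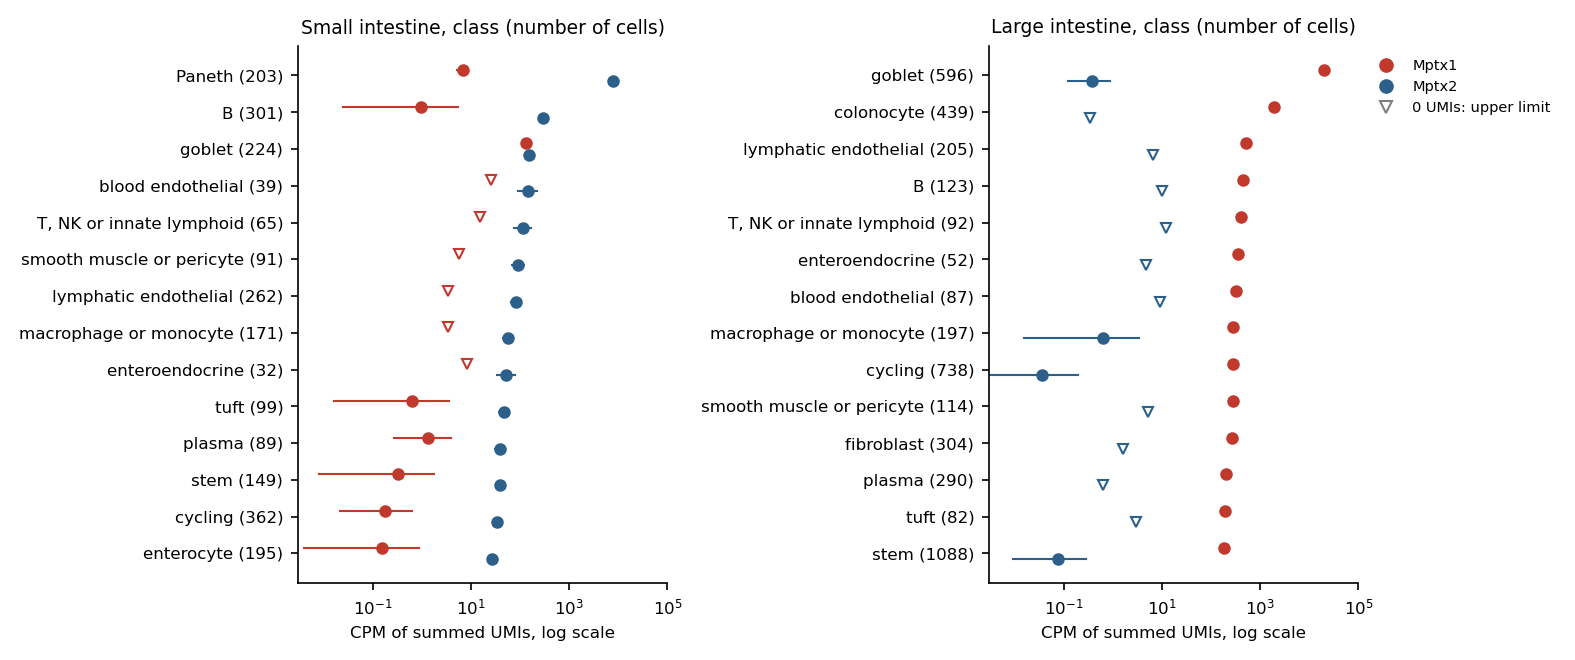
Level of Mptx1 (red) and Mptx2 (blue) by marker-named class in the small (left) and large (right) intestinal cell libraries, in CPM on a log axis, for classes of at least 20 cells; lines are exact 95% intervals and open triangles the upper limit where no UMI was counted. Mptx2 peaks at 7963 CPM in small intestinal Paneth-like cells, and Mptx1 in goblet-like cells of each tissue, at 131 CPM (small intestine) and 19562 CPM (large intestine).

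In large intestinal tissue, Mptx1 lay in cells rich in Muc2. Because the boundary of the goblet-like class moved with the clustering, the 7 clusters with at least 4000 CPM of Muc2 are described by number, with a Muc2 level chosen after the values were seen (lowest inside 4364 CPM, highest outside 2030 CPM). These 1572 cells, 26.7% of the library, held 95.3% of the Mptx1 UMIs at 17115 CPM (17075 to 17156). The other epithelial cells stood at 439 CPM (434 to 444) and the non-epithelial cells at 259 CPM (250 to 268). Mptx1 was 5.38 log2 units higher in the Muc2-rich clusters than in the other cells, where 6.95% of 13591 genes were at least 2-fold higher and 22.5% at least 2-fold lower. The small intestinal class closest to these clusters, the goblet-like cells, was at 131 CPM.

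Mptx1 differed widely among the Muc2-rich clusters, in an order unlike that of their Muc2 levels. Cluster 16, goblet-like and high in Zg16 (48620 CPM), Clca1 and Fcgbp, had the highest level, 44196 CPM. Cluster 0, unnamed and led by Dlk1, Cma1, Serpina9 and Best2, was at 30239 CPM and held 47.7% of all Mptx1 UMIs of the library. Cluster 19, unnamed, with cycling markers, Lyz1 and Cma1, was at 19660 CPM. Cluster 25, goblet-like and high in both Zg16 (47795 CPM) and Reg4 (8078 CPM), was at 16390 CPM. Cluster 4, goblet-like and led by Lhx3, Tff2, Reg4 (11946 CPM) and Retnlb (19494 CPM), was at 6536 CPM. The cycling-like cluster 24 was at 1258 CPM. Cluster 5, led by Atp6v0a4, Ido1 and Mmp7, had the highest Muc2 level (21491 CPM) and the lowest Mptx1 level of the 7, 976 CPM (956 to 996). Each of these neighbours in the order differed beyond counting error, which leaves out the spread between cells. By the median share of a cell's UMIs, cluster 5 (0.018%) was not below cluster 24 (0.016%). Retnlb, a secreted goblet cell protein, was at 2773 CPM in cluster 16 and 998 CPM in cluster 0, and at 12647 CPM in cluster 5.

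Within clusters 16, 0 and 19, Mptx1 was spread over more than 2 orders of magnitude between the 10th and the 90th percentile of cells. In cluster 16 its share of a cell's UMIs had a median of 1.76%, from 0.0521% at the 10th percentile to 10.7% at the 90th and 25.3% at most. In cluster 0 the median was 1.01% and the highest cell had 25.1%. Cells with at least 1% of their UMIs from Mptx1, a value chosen after the data were seen, made up 57.7% of cluster 16 (49.5 to 65.6), 50.2% of cluster 0, 43.6% of cluster 19, 23.6% of cluster 25 and 10.1% of cluster 4. They were 3 of 318 cells in cluster 5 and 2 of 77 in cluster 24. Over all 1572 Muc2-rich cells, 434 were at 1% or more, 74 of them at 10% or more, and 826 were under 0.1%, the range of most B-like cells. Of the 5882 cells of the library, 97 held 50% of all Mptx1 UMIs.

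**Figure D3:**
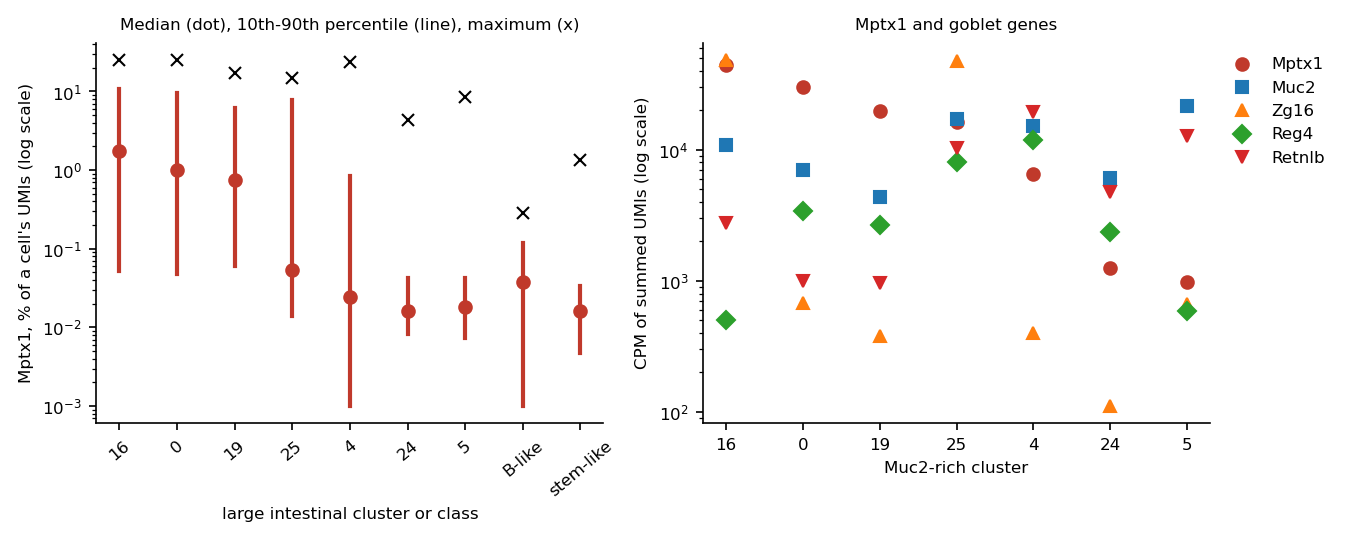
Left, share of each cell's UMIs from Mptx1 on a log axis in the 7 Muc2-rich large intestinal clusters and in B-like and stem-like cells, with values under 0.001% drawn there; right, summed levels of Mptx1, Muc2, Zg16, Reg4 and Retnlb in those clusters, in CPM on a log axis. Among the 7 clusters, median shares are highest in cluster 16 (1.76%) and lowest in clusters 5 (0.018%) and 24 (0.016%), close to stem-like cells (0.016%), while Muc2 is highest in cluster 5.

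Mptx1 was also seen in every large intestinal cluster outside these 7, in most of them at a lower level. The exception was the colonocyte-like cluster 8, at 2727 CPM (2689 to 2766), above the Muc2-rich clusters 24 and 5, and 3 of its 269 cells held 50% of its Mptx1 UMIs. The other clusters ran from 156 CPM in the cycling-like cluster 2 to 866 CPM in the unnamed cluster 9. By class, stem-like cells were at 183 CPM and lymphatic endothelial-like cells at 510 CPM. The cycling-like class, cluster 24 included, was at 278 CPM, but at 3113 CPM with resolution 0.5 and 2598 CPM with the marker gate, where other cells made up the class. Per 1000 UMIs of the goblet list, Mptx1 stood at 207 in stem-like, 215 in tuft-like, 227 in plasma-like, 238 in macrophage-like and 282 in B-like cells, against 801 in cluster 0, 397 in cluster 16 and 22.4 in cluster 5. The colonocyte-like class (439 cells, clusters 8 and 15) was at 1881 CPM, a level that moved with the cells of the class. It was 215 CPM under the loose and 177 CPM under the strict filter, below B-like cells at 475 and 372 CPM. With doublets kept it was 713 CPM, with the marker gate 843 CPM, and at resolutions 0.5 and 2 it was 1440 and 2210 CPM. The goblet-like class was 3.38 log2 units above the colonocyte-like class, and 3.33 to 6.85 under the alternatives run. Detection separated the classes far less than the level did. At 2000 UMIs per cell, Mptx1 was seen in 65.9% of Muc2-rich cells (63.4 to 68.4) and in 54.2% of B-like cells (44.3 to 63.9); unthinned, in 95.4% and 69.9%, at median depths of 26877 and 2644 UMIs. The share was lower in stem-like (28.8%) and in the cycling-like cells outside cluster 24 (26.1%). At 1000 UMIs per cell it was 56.3% in Muc2-rich cells (53.8 to 58.8), 36.9% in B-like cells (28.3 to 46.1) and 16.9% in stem-like cells. The Muc2-rich share thus overlapped that of B-like cells at 2000 UMIs and lay above it at 1000, and shares at or below the B-like share are not read as expression. The 25 Mptx2 UMIs of this library included 5 in goblet-like and 16 in unnamed cells, and 0 were counted in colonocyte-like, B-like and lymphatic endothelial-like cells.

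Organoid Paneth-like cells had almost no Mptx2. In the control library all 10 Mptx2 UMIs lay in 2 of 22 Paneth-like cells, with 9 in 1 cell. In the coculture all 33 lay in 5 of 55 Paneth-like cells, with 27 in 1 cell. Their levels were 3.70 CPM (1.78 to 6.81) and 7.20 CPM (4.96 to 10.1), against 7963 CPM in tissue, a difference of 11.07 (10.19 to 12.13) and 10.11 log2 units (9.62 to 10.65). The organoid cells did carry Paneth markers, with the 9-gene list at 93964 and 155663 CPM and Lyz1 at 12574 and 12898 CPM, both below the tissue values of 613254 and 43276 CPM. Their summed goblet list was higher, at 28803 and 41773 CPM against 15077 CPM in tissue Paneth-like cells. The genes of that list did not move alike. Tff3 was at 10201 and 13430 CPM against 712 CPM in tissue, and Fcgbp at 2329 and 3308 CPM against 71.6 CPM. Muc2 was at 722 CPM in control and 1216 CPM in coculture against 785 CPM in tissue, and Spink4 at 15087 and 19723 CPM against 13233 CPM. The part of these markers in the Mptx2 difference was not tested. Per 1000 UMIs of the Paneth list, Mptx2 stood at 0.0394 and 0.0463, against 13.0 in tissue. Mptx1 had 4 of its 6 UMIs in control and 29 of its 34 in coculture in Paneth-like cells, at 1.48 CPM (0.404 to 3.79) and 6.33 CPM (4.24 to 9.09), beside 6.80 CPM in tissue Paneth-like cells. No cluster of the organoid libraries was called goblet-like. The organoid cells were the deeper ones, with a median of 73664 and 86295 UMIs against 11810 in small intestine. The libraries also differ in sorting, whose part in the difference was not tested.

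Between the organoid cultures, neither gene reached 100 UMIs. Over all cells, Mptx1 was at 0.139 CPM (0.0509 to 0.302) in control and 0.351 CPM (0.243 to 0.490) in coculture, 1.34 log2 units higher (0.07 to 2.88). Under the strict cell filter the difference was 1.23, with an interval that includes 0 (-0.04 to 2.77), and as a mean of cell levels it was 0.90. Mptx2 was at 0.231 and 0.340 CPM, a difference of 0.56 log2 units (-0.50 to 1.74), which was -0.17 without the top cell of each culture and 2.10 as a mean of cell levels. Among 11705 genes with at least 100 UMIs, 1.24% were at least 2-fold higher in coculture and 2.81% at least 2-fold lower. Paneth-like cells made up 22 of 538 control and 55 of 1028 cocultured cells.

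In small intestine sections, Mptx2 followed the Paneth and crypt genes. Spots of each section were ranked by the share of their UMIs from a list of zone genes and split into 3 groups of equal size, and the top group was compared with the bottom group. For the Paneth list, Mptx2 was at 2875 CPM in the top and 138 CPM in the bottom group of section 1, and at 1628 and 59.6 CPM in section 2, or 4.39 and 4.77 log2 units. For the crypt list (Lgr5, Ascl2, Olfm4, Slc12a2, Cdca7, Mki67, Top2a) the ratios were 3.86 and 4.28. For the villus surface list (Apoa1, Apoa4, Alpi, Ada, Fabp1) they were -2.99 and -3.32. Mptx2 was also higher along other lists, with 3.53 and 3.90 for Reg4, Retnlb and Agr2. The ratios were 1.43 and 1.49 for the muscle list (Myh11, Actg2, Des, Acta2) and 1.25 and 1.60 for the plasma cell list (Jchain, Igha, Mzb1). Mptx2 differed between the duplicates, 952 against 416 CPM, and the Paneth list did too, with 52988 and 29228 CPM. Per 1000 UMIs of the list, Mptx2 was at 18.0 and 14.2. A UMI of Mptx2 was found in 89.7% and 72.3% of spots, and 10% of the spots held 63.2% and 68.7% of its UMIs.

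Mptx1 in the same sections differed more along the goblet list than along the Paneth list. For the goblet list, Mptx1 was at 120 CPM in the top and 38.9 CPM in the bottom group of section 1, and at 78.8 and 24.4 CPM in section 2, or 1.62 (1.43 to 1.81) and 1.69 log2 units (1.48 to 1.91). Mptx2 had similar ratios along the goblet list, 1.76 (1.70 to 1.81) and 1.81 (1.73 to 1.88), and the intervals of the 2 genes overlap in each section. One gene of that list, Spink4, was at 13233 CPM in Paneth-like cells. For the Paneth list the Mptx1 ratios were 0.49 (0.33 to 0.64) and 0.53 (0.36 to 0.71). For Reg4, Retnlb and Agr2, genes of deep crypt secretory cells, they were 1.56 (1.39 to 1.73) and 1.09 (0.91 to 1.27), and in section 1 this does not differ from the goblet list value beyond counting error. For the surface list the sections differed in sign, with -0.60 (-0.75 to -0.46) and 0.14 (-0.03 to 0.31). At 2000 UMIs per spot, Mptx1 was seen in 12.7% and 9.36% of spots, Mptx2 in 55.3% and 38.4%, and both in 7.03% and 3.84%; unthinned, Mptx1 was seen in 43.0% and 32.3% of spots. Mptx1 stood at 4.14 and 3.34 per 1000 UMIs of the goblet list, against 198 and 185 in the large intestine sections.

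In large intestine sections, Mptx1 was concentrated in spots rich in the genes of deep crypt secretory cells, and less so in spots rich in the goblet list. For Reg4, Retnlb and Agr2, Mptx1 was at 11620 CPM in the top and 1306 CPM in the bottom group of section 1, and at 10317 and 1346 CPM in section 2, or 3.15 (3.13 to 3.18) and 2.94 log2 units (2.92 to 2.96). In these sections Reg4 made up little of that list, at 188 and 180 CPM beside 1755 and 1491 CPM of Retnlb and 1910 and 1868 CPM of Agr2. The cells gave another order, with cluster 4, high in both Reg4 and Retnlb, at 6536 CPM of Mptx1, below clusters 16 (44196 CPM) and 0 (30239 CPM). For the goblet list the ratios were 1.68 (1.66 to 1.70) and 1.39 (1.38 to 1.41), and for the crypt list 1.12 and 0.88. For the surface list (Aqp8, Car4, Slc26a3, Krt20) they were -1.30 and -1.11, and for the muscle list -0.86 and -1.11. Mptx1 had a UMI in 99.8% and 99.9% of spots, with 24.4 and 26.3 UMIs per 10000 in the median spot and 531 and 502 in the highest. The top 10% of spots held 47.9% and 45.7% of its UMIs.

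**Figure D4:**
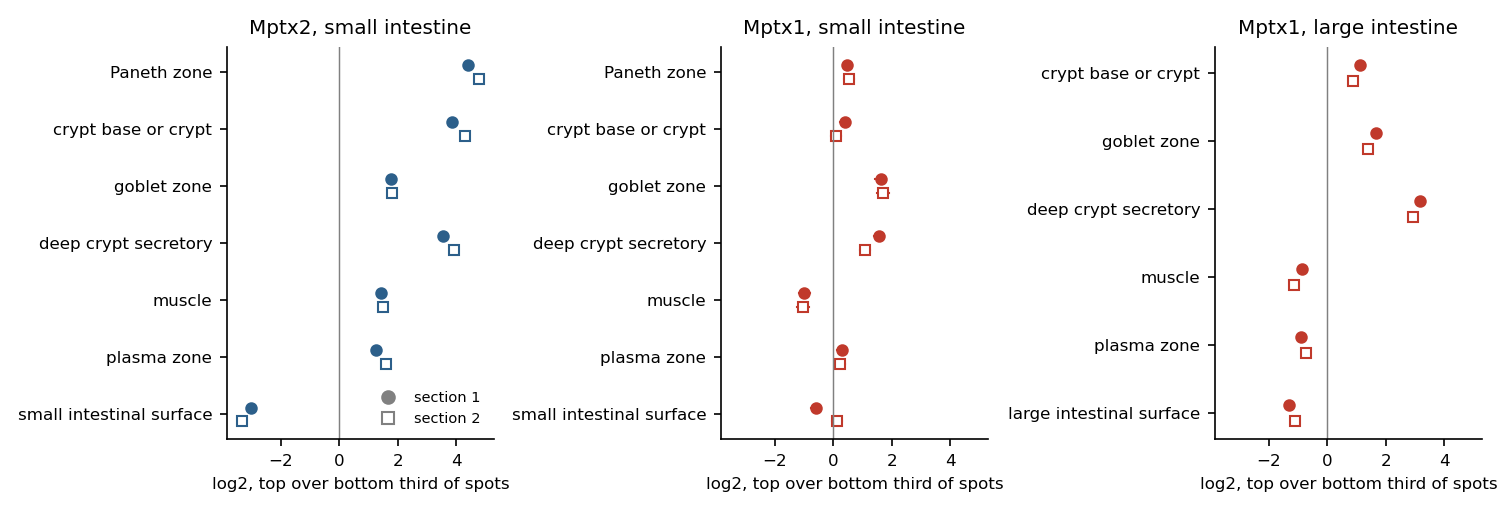
Log2 ratio of the level in the top over the bottom of 3 equal groups of spots ranked by each zone list, for Mptx2 (blue) and Mptx1 (red) in small and Mptx1 in large intestine; filled circles are section 1, open squares section 2, and counting intervals are mostly shorter than the symbols. Mptx2 is highest along the Paneth list (4.39 and 4.77), and Mptx1 along the goblet list in small (1.62 and 1.69) and the deep crypt secretory list in large intestine (3.15 and 2.94).

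Genes with the most similar patterns were found by Pearson's r as a description. Across the log2 levels of 28 named classes of both tissue libraries, 14 per tissue, which share library and free RNA within a tissue, the closest of 12825 genes to Mptx2 were the alpha-defensins Defa29, Defa26, Defa17, Defa21 and Defa22 (r of 0.991 to 0.984). The closest to Mptx1 were Retnlb (0.983), Sval1 (0.949), Pla2g10 (0.838), the colonic carbonic anhydrase Car1 (0.830) and Sycn (0.814). The named classes leave out the unnamed clusters, among them cluster 0, which held 47.7% of the large intestinal Mptx1 UMIs with Retnlb at 998 CPM. Mptx1 and Mptx2 themselves had r = -0.68 across the classes, which restates the tissue difference for which the pair was chosen. Across the spots of the small intestine sections, Mptx2 was closest to Defa24, Defa30, Defa17, Lyz1 and Itln1, with r of 0.869 and 0.785 in sections 1 and 2 for Defa24. Across the spots of the large intestine sections, Mptx1 was closest to Retnlb (0.738 and 0.704), Ang4 (0.718 and 0.682), Spink4, Fabp2 and Agr2. Spots share depth and cell mixture. In small intestine spots the r of Mptx1 with Mptx2 was 0.037 and 0.009.

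The genes between Mptx2 and Mptx1 on the chromosome had much smaller tissue differences. Because the pair was chosen for its tissue difference, this contrast follows largely from the choice and is a description. Of the protein-coding genes that RefSeq lists there, 24 were analysed, among them the interferon-inducible Ifi genes, Aim2 and 9 olfactory receptors. In the sections, 11 of them had at least 100 UMIs, 2 of the 11 (Ackr1 and Ifi205) were at least 2-fold higher in large intestine, and 0 at least 2-fold higher in small intestine, with the background of 12.9% and 14.5% given above. Their log2 ratios of large over small intestine ran from -0.56 for Ifi213 to 1.04 for Ifi205, and the highest level of any of the 24 was 28.0 CPM. By the same sum over sections, Mptx1 was at 6.26, and Mptx2 at -14.18 with its 2 large intestinal UMIs set to 3 (interval without that setting -17.81 to -12.92).

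**Figure D5:**
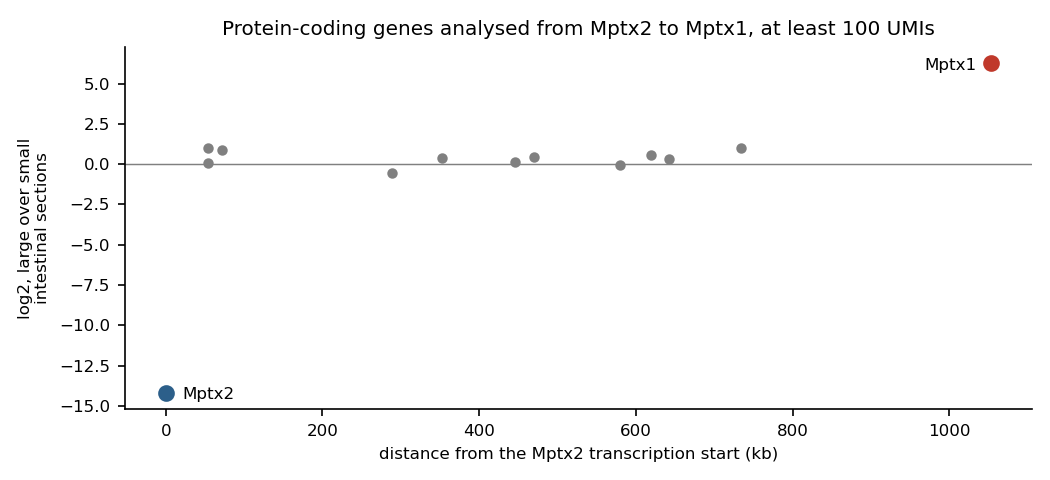
Log2 ratio of large over small intestine sections for Mptx2 (blue), Mptx1 (red) and the 11 protein-coding genes analysed between them with at least 100 UMIs (grey), against the distance from the Mptx2 start in kb. The grey points stay between -0.56 and 1.04, and the mucosal pentraxins at each end are at -14.18 (2 UMIs set to 3) and 6.26.

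In the tissue libraries and sections, the other pentraxins had few UMIs beside the higher of the 2 mucosal ones. In organoids the mucosal counts were low too, with 6 and 34 UMIs of Mptx1 in control and coculture and 10 and 33 of Mptx2. There Nptxr had more, 36 and 78 UMIs. Crp had 0 to 16 UMIs per library, Apcs and Ptx4 0 to 1, Ptx3 0 to 34 and the neuronal pentraxin Nptx1 4 to 34. Nptx2 had 4 to 284 UMIs and the neuronal pentraxin receptor Nptxr 5 to 167. The highest Nptx2 level of a library was 9.44 CPM (8.37 to 10.6), in small intestine section 2, and 43 of its 65 UMIs in the coculture lay in enteroendocrine-like cells. All 18 Ptx3 UMIs of the small intestinal cells lay in lymphatic endothelial-like cells. Of the pentraxin partners, complement C1qa reached 2842 CPM in macrophage-like cells of small intestine and 4225 CPM in those of large intestine. In each tissue library, macrophage-like cells were also the class with the highest level of C1qb and of the Fc receptor genes Fcgr1, Fcgr2b, Fcgr3 and Fcer1g.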

How the data were processed

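Per the labels, the libraries were 10x single-cell and Visium libraries. The deposited matrices hold UMI counts per gene and barcode, made with Cell Ranger 6.0.1 and Space Ranger 1.2.1 per the file headers, and on mm10 per the submitters' processing notes; the annotation release is not given in the sources used here. Kept cells had 500 or more genes and no more than 20% of UMIs from mitochondrial genes, top Scrublet doublet scores were removed at 0.8% per 1000 cells, and spots with at least 500 UMIs were kept. Cells were clustered with scanpy 1.11.5 (2000 variable genes, 30 components, 15 neighbours, Leiden resolution 1) without the pentraxin genes. A cluster took the class of 18 marker lists with the highest mean log2 ratio, with at least 3 markers detected in 10% of its cells and 1 log2 unit higher; it stayed unnamed where another class led its 10 top genes, or where the name belongs to the other tissue (colonocyte in small intestine, Paneth or enterocyte in large intestine). Counts were summed per class, and counts below 3 entered ratios and the class levels used for r as 3. Intervals were exact Poisson, exact binomial (Clopper-Pearson) or exact conditional limits (scipy 1.17.1). Ratios were tested on Poisson counts simulated from large intestine section 1. The limits held the true ratio for 95.2% of 11952 genes, and for 92% of the 200 genes given a change. Such counts have no spread between cells, so they do not test the limits for sums over cells. No test between groups was made, since each single-cell group had 1 library and the sections were technical duplicates. Genes of like pattern were the 5 with the highest r among genes with at least 100 UMIs, leaving out mitochondrial, ribosomal, sex and unnamed gene models; for sections, the lower r of the pair was ranked. Promoter sequences and positions are RefSeq's (GRCm38.p6), matched by symbol for both genes. Of the genes between them and of the pentraxin partners, 1 each is not reported here. The genes, lists and rules were chosen with earlier results of these data known.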

Additional observations from a re-analysis of the deposited data

Results flagged for a closer look

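Mptx1 differed in direction between tissues along the plasma cell list (Jchain, Igha, Mzb1). In small intestine sections 1 and 2, its level in the top over the bottom of 3 equal groups of spots was 0.29 and 0.23 log2 units, and in large intestine sections 1 and 2 it was -0.89 and -0.71. Both duplicates of each tissue moved one way, the mean ratios of the tissues differed by 1.06 log2 units, and the difference was not tested.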

How the results depend on the processing

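All ratios here are log2 values, and none of those listed with a main interval away from 0 changed sign under any alternative run. The large over small intestinal epithelial ratio of Mptx1 (8.60) was 8.73 without mitochondrial and ribosomal genes, 8.39 without Paneth list and Defa genes, 8.78 and 8.42 under the loose and strict cell filters, 8.29 with a per-cell marker gate and 8.84 without the top cell. Small intestinal Paneth-like over goblet-like Mptx2 (5.69) was 6.09 as a mean of cell CPM, 5.46 without mitochondrial and ribosomal genes, 7.12 without Paneth list and Defa genes, 5.44 under the strict filter, 6.91 with the gate and 6.76 without the top cell. Goblet-like over Paneth-like Mptx1 (4.27) was 5.02 as a mean of cells, 2.84 without Paneth list genes and 5.21 without the top cell. Large intestinal goblet-like over colonocyte-like Mptx1 (3.38) moved most: 3.42 as a mean of cells, 3.33 without mitochondrial and ribosomal genes, 6.09 and 6.85 under the loose and strict filters, 5.28 with doublets kept, 4.51 and 3.68 at resolutions 0.5 and 2, 4.78 with the gate and 3.77 without the top cell; the cause was not tested. The organoid ratio of Mptx2 (0.56) was 2.10 as a mean of cells. With 4 groups of spots in place of 3, Mptx2 along the Paneth list was 4.86 and 5.18, and Mptx1 along the goblet list 1.85 and 1.54 in large and 1.90 and 1.94 in small intestine. Leaving out 1 section in turn, the section ratios ran from 5.95 to 6.57 for Mptx1 and from 12.53 (without small intestine section 1) to 13.72 for Mptx2. The section numbers pair nothing by design, and no fit was made; as a replicate block, pairs 1 and 2 gave 6.00 and 6.51 for Mptx1 and 13.68 and 12.57 for Mptx2. Removing the shared barcodes was added after seeing the data. Few UMIs lie behind the organoid values (6 to 34) and behind Mptx2 in large intestine (25 in cells, 1 in each section). For scale, total depth in the single-cell libraries ran from 43279721 to 123827909 UMIs. Among these, sorted small intestine had 75390 UMIs of Mptx2 out of 52182323.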
